A study of Homo sapiens with 24 samples.

Results

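Δ133p53α8 and Δ133p53α2 are clonal cell lines that carry the same introduced p53 isoform, and their RNA profiles were compared with each other. Both derive from NCI-H1299, a non-small cell lung cancer line that is p53 null, and both stably overexpress Δ133p53α from a plasmid. The libraries were taken by their labels, 4 for each clone, so 8 of the 24 libraries of the series were compared. The tests of single genes were fitted to 23 libraries of all 6 lines, which set the filter, scaling and estimate of spread. The other lines were H1299 vector-only control cells, a further Δ133p53α line (Δ133p53α1) and 2 Δ133p53β lines (Δ133p53β5 and Δ133p53β10). Each isoform-expressing line is 1 clone, so features of a clone and effects of its plasmid insertion cannot be told apart. Nothing in the labels says that the 4 libraries of a line came from separate cultures, so p-values measure the spread between libraries, which may be technical.

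Δ133p53α is an amino-terminally truncated form of p53 that lacks the transactivation domains and part of the DNA-binding domain. A clonal line grows out of a single transfected cell, and so it also carries whatever that cell had, such as its own pattern of silenced genes and its own chromosome copies. Lung cancer lines in long culture are known for such variation between cells.

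In total, 25 of 18295 tested genes differed between the clones (0.137%), with 14 higher (0.0765%) and 11 lower (0.0601%) in Δ133p53α8. Calls required an adjusted p below 0.05 (edgeR quasi-likelihood test, Benjamini-Hochberg) together with a difference of 1.5 or more on the log2 scale. The genes that were higher in Δ133p53α8 included IL13RA2, a decoy receptor for interleukin 13, PTN, the growth factor pleiotrophin, the cell adhesion receptor ICAM1 and the insulin receptor gene INSR. Genes that were lower in Δ133p53α8 included the homeobox genes MSX2 and BARX2, TM4SF19, the Wnt antagonist SFRP1 and STAT6, the transcription factor of interleukin 4 and interleukin 13 signaling. Of the 25, 7 had at most 1 read in any library of one clone. The median level in the higher clone was 2.57 CPM (reads scaled to library size with TMM factors), against 12.6 CPM over all tested genes.

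Promoters are shown as examples for 4 of the 7 genes with at most 1 read per library in one clone, and for ICAM1, which had the smallest p among the protein-coding genes. They span 250 bases before to 50 bases after the annotated start (RefSeq, GRCh38.p14), and CpG dinucleotides are in capitals. The gene of the mitochondrial methionine tRNA, MT-TM, is shown with its anticodon in capitals because it had the highest level of the called genes. The ICAM1 promoter lies at chr19:10270870-10271169 on the plus strand, SFMBT2 at chr10:7411441-7411740 on the minus strand and PTN at chr7:137343684-137343983 on the minus strand. The TM4SF19 promoter lies at chr3:196338339-196338638 on the minus strand, MSX2 at chr5:174724332-174724631 on the plus strand, and MT-TM at chrM:4402-4469 on the plus strand (GRCh38).
ICAM1: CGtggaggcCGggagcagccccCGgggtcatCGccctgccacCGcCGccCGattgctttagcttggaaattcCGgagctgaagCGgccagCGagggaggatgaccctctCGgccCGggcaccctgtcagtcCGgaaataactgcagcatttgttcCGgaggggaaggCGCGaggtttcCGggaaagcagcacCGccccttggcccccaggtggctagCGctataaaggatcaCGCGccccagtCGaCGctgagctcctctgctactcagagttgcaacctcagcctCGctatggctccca
SFMBT2: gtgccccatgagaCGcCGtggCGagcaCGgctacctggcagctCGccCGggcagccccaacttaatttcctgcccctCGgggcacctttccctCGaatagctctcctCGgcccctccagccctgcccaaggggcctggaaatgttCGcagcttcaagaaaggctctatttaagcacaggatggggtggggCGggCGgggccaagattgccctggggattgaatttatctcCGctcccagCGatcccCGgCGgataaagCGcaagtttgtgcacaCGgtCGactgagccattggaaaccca
PTN: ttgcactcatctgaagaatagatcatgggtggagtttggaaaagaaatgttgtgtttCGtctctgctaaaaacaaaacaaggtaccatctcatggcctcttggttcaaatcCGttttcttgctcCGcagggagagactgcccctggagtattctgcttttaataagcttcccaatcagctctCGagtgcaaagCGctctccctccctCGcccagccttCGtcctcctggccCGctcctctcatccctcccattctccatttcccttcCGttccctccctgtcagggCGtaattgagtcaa
TM4SF19: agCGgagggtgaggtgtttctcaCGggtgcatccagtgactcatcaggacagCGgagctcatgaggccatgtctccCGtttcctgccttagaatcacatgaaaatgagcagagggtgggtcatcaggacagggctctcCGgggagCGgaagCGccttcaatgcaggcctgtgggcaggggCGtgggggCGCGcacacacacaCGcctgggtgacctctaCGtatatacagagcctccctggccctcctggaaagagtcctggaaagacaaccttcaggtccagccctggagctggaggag
MSX2: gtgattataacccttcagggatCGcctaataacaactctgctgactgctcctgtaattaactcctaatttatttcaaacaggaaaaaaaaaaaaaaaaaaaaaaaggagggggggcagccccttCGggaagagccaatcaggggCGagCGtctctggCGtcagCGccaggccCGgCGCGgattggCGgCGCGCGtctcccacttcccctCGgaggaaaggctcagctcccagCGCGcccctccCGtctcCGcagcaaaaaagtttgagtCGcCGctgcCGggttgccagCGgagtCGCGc
MT-TM: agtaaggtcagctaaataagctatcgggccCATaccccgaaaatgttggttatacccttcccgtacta

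Of the 25 called genes, 19 had a promoter in the table used, as had 11632 of the tested genes. A promoter was counted as CpG rich when it had at least 50% G and C and a ratio of observed to expected CpG of at least 0.6. By this measure, 13 of the 19 (68.4%) were CpG rich, against 78.9% of all tested promoters. The promoters in capitals above held 24 CpG for ICAM1, 19 for SFMBT2, 10 for PTN, 12 for TM4SF19 and 24 for MSX2, and the median over all tested promoters was 26. The MGMT promoter, whose methylation is widely studied in tumors, held 45. The letters TTCNNNGAA, searched on both strands, were in the ICAM1 promoter and in 6.32% of all tested promoters. TATAAA, searched in the same way, was in those of ICAM1 and CD200 and in 5.71% of all. These matches describe letters in the window and do not mark binding sites.

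The 8 libraries held 21531599 to 21996884 reads assigned to genes, so that 1 CPM stood for 18 to 24.2 reads. Markers of leukocytes were at 0 in both clones for 7 of 12 genes, those of squamous cells for 7 of 10, of lung and alveolar cells for 5 of 12, of fibroblasts for 3 of 10 and of endothelial cells for 1 of 10, whereas KRT8, KRT18, VIM and LMNA together had 4216 to 12410 CPM. The lung and alveolar markers summed to 36.5 to 46.7 CPM in Δ133p53α2 and 33.9 to 45.2 CPM in Δ133p53α8. The endothelial markers summed to 2.93 to 4.00 CPM in Δ133p53α2 and 1.23 to 2.38 CPM in Δ133p53α8, all 5 tested had a negative log2 fold change (median -0.70) and none was called (smallest adjusted p = 0.537 by edgeR). Their part in the results was not tested. In 1 library of each clone, long genes had lower levels relative to the mean over the 23 fitted libraries of all lines. These were replicate 1 of Δ133p53α2 and replicate 2 of Δ133p53α8. In both, the deviation of log2 CPM from that mean had a negative rank correlation with gene length. The tests of single genes were also fitted with this difference between library sets as a term, and the results by chromosome, window and share of the sum of squares were recomputed without these 2 libraries. With the term, 47 genes were called (0.257%), 28 higher (0.153%) and 19 lower (0.104%) in Δ133p53α8, and all 25 genes were among them. A fit without the libraries of any line in which long genes were lower did not call all of the 25. SLC12A7 and TMEM40, at log2 fold changes of -1.42 and -1.47 there, missed the fold threshold. With 1 library left out of the fit without the term, TMEM40, EIF4E3, CD200, LAMC3, SFRP1, LINP1, ZDHHC15, SLC12A7, MSX2, MGMT, SCG3, ZNF558 and TM4SF19-AS1 each lost the call in at least 1 case, and none of the 25 changed direction. CD200, ZDHHC15 and MSX2 were called in none of these cases. PTN, TBX3, ARHGAP6 and STAT6 lost the call, among the alternatives that tested them, only when the 8 libraries were fitted alone.

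**Figure D1:**
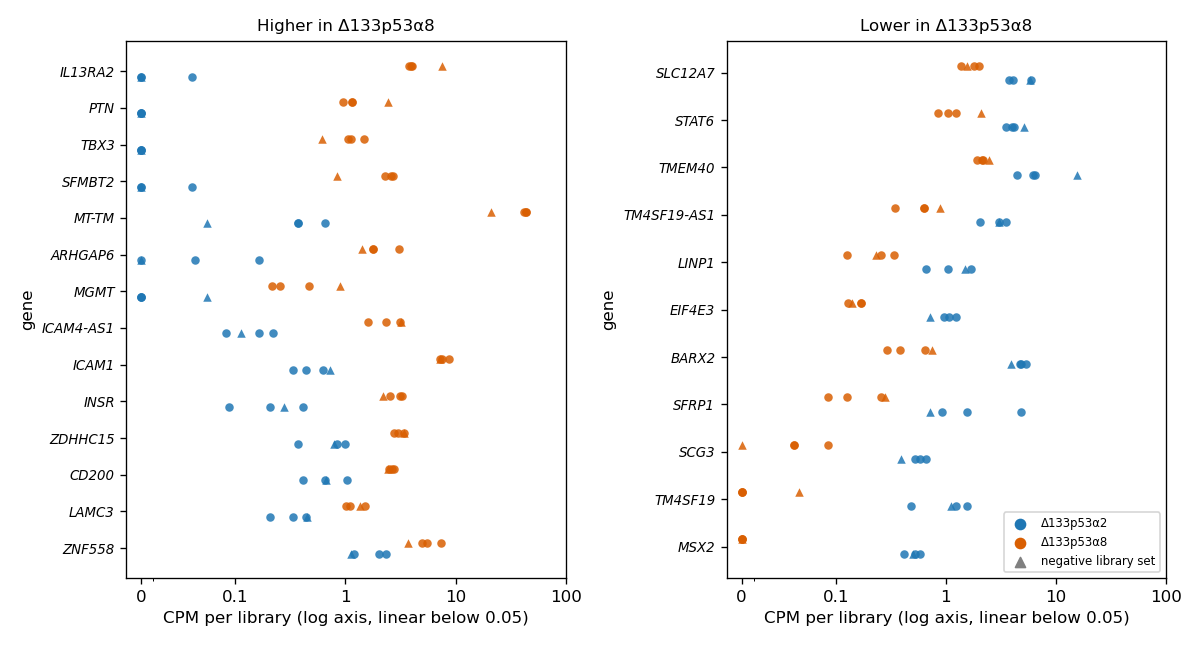
CPM (log axis, linear below 0.05) of the 25 called genes in each library of Δ133p53α2 (blue) and Δ133p53α8 (orange), with triangles for the library of each clone in which long genes were lower. None of these genes has overlapping clones, which held for 409 (2.24%) of all tested genes, and IL13RA2, PTN, TBX3, SFMBT2, MGMT, TM4SF19 and MSX2 have at most 1 read in any library of one clone.

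Among receptors and adhesion molecules, IL13RA2 had the largest difference. It had 0, 0, 1 and 0 reads in the libraries of Δ133p53α2 and 94, 161, 89 and 94 reads in those of Δ133p53α8. The ratio of the summed reads, at equal depth, was 425 (95% counting interval 75.9 to 16840), and the adjusted p was 9.95e-07 (edgeR). IL13RA2 was also near 0 in Δ133p53α1 (0.0133 CPM) and in Δ133p53β10 (0.0335 CPM), whereas control had 18.8 ± 6.62 CPM (SD, n = 4). Thus Δ133p53α8 lay between control and the other lines, at 4.82 ± 1.79 CPM (SD, n = 4).

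ICAM1, the receptor for leukocyte integrins, was at 0.724, 0.437, 0.619 and 0.33 CPM in Δ133p53α2 and at 8.75, 7.28, 7.3 and 7.48 CPM in Δ133p53α8. The clones did not overlap, and the log2 fold change was 3.87 (SE 0.256, adjusted p = 1.6e-08 by edgeR). Here Δ133p53α2 stood apart from every other line, since control had 5.42, Δ133p53α1 6.48, Δ133p53β5 7.14 and Δ133p53β10 15.9 CPM. ICAM4-AS1, a noncoding RNA on the opposite strand, overlaps the end of ICAM1 and was also higher in Δ133p53α8 (log2 fold change 4.09, SE 0.508, adjusted p = 0.000188 by edgeR). The libraries were strand specific, but the strand setting of the counting is not given in the sources used here. Reads in the stretch that the 2 genes share therefore cannot be told apart. The neighbouring ICAM3 and ICAM5 were not called, with log2 fold changes of -0.17 and 0.13.

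INSR was at 0.278, 0.0873, 0.206 and 0.413 CPM in Δ133p53α2 and at 2.54, 2.19, 3.14 and 3.28 CPM in Δ133p53α8. All libraries of Δ133p53α8 lay above all those of Δ133p53α2 (log2 fold change 3.47, SE 0.429, adjusted p = 0.000188 by edgeR). Control and Δ133p53α1 were also low, at 0.582 and 0.31 CPM, and the Δ133p53β lines were at 5.31 and 4.27 CPM. CD200, an immunoglobulin-family protein that restrains myeloid cells, was higher in Δ133p53α8 at 2.58 ± 0.15 against 0.692 ± 0.255 CPM (SD, n = 4 each).

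PTN had 0 reads in all 4 libraries of Δ133p53α2 and 22, 52, 27 and 27 reads in Δ133p53α8. With 3 counts per library allowed for a count of 0, it was at least 10.4-fold higher in Δ133p53α8 (adjusted p = 0.000122 by edgeR). LAMC3, a laminin chain of basement membranes, was at 0.355 ± 0.112 CPM in Δ133p53α2 and 1.24 ± 0.228 CPM in Δ133p53α8 (SD, n = 4 each), with a log2 fold change of 1.81. The secreted Wnt antagonist SFRP1 differed in the other direction. It was at 0.724, 0.917, 1.57 and 4.83 CPM in Δ133p53α2 and at 0.259, 0.28, 0.127 and 0.0841 CPM in Δ133p53α8 (log2 fold change -3.40, SE 0.648, adjusted p = 0.0298 by edgeR). The clones did not overlap, but the libraries of Δ133p53α2 were widely spread. SCG3, a protein of secretory granules, had 7, 12, 16 and 14 reads in Δ133p53α2 and 1, 0, 1 and 2 reads in Δ133p53α8.

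**Figure D2:**
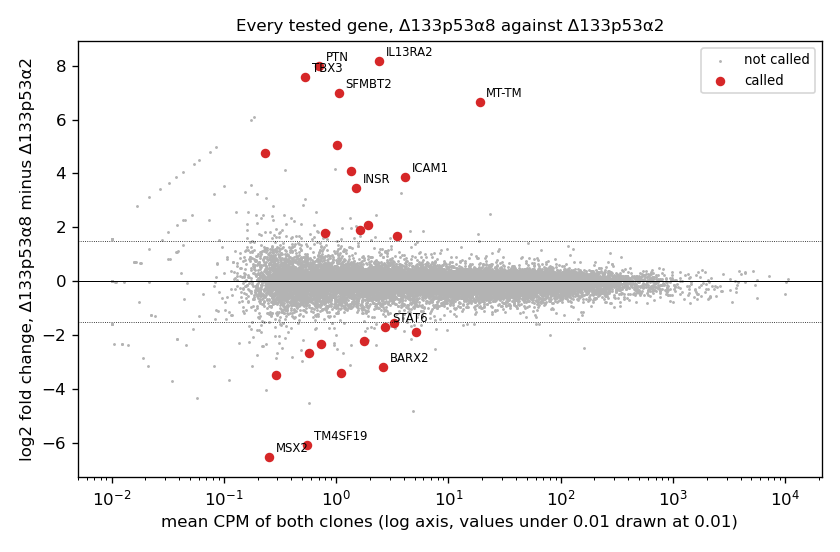
Log2 fold change of Δ133p53α8 minus Δ133p53α2 against the mean CPM of both clones (log axis) for every tested gene, with the 25 called genes in red and dotted lines at 1.5 in both directions. Most called genes lie at low levels, and MT-TM has the highest level among them.

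Transcription factors and chromatin proteins were among the genes with the largest differences. TBX3, a T-box repressor of development, had 0 reads in Δ133p53α2 and 26, 13, 35 and 25 reads in Δ133p53α8, at least 7.81-fold higher. SFMBT2, a Polycomb-group protein, had 0, 0, 1 and 0 reads in Δ133p53α2 and 53, 18, 61 and 64 reads in Δ133p53α8, a ratio of 190 (95% counting interval 33.8 to 7554). It was at 0 CPM in Δ133p53α1 too, and at 10.3 ± 3.58 CPM in control (SD, n = 4). Δ133p53β5 and Δ133p53β10 had 5.37 and 4.84 CPM of SFMBT2.

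MSX2, a homeobox gene of limb and skull development, had 9, 12, 14 and 10 reads in Δ133p53α2 and none in Δ133p53α8, at least 3.86-fold lower (adjusted p = 0.0315 by edgeR). BARX2, a further homeobox gene, was at 3.9, 4.76, 4.83 and 5.37 CPM in Δ133p53α2 and at 0.646, 0.746, 0.382 and 0.294 CPM in Δ133p53α8. The clones did not overlap (log2 fold change -3.18, SE 0.44, adjusted p = 0.000802 by edgeR). Control had 3.04 CPM of BARX2 and the other 3 lines 0.591 to 1.04 CPM. The zinc finger gene ZNF558 was higher in Δ133p53α8, at 5.38 ± 1.5 against 1.66 ± 0.595 CPM (SD, n = 4 each).

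STAT6 was at 5.12, 4.19, 3.96 and 3.51 CPM in Δ133p53α2 and at 1.03, 2.1, 1.23 and 0.841 CPM in Δ133p53α8 (log2 fold change -1.69, SE 0.249, adjusted p = 0.00164 by edgeR). Both clones were low beside Δ133p53α1, which had 18.6 ± 0.733 CPM, and the Δ133p53β lines, which had 17.6 and 27.6 CPM. Against the 2.46 CPM of control, Δ133p53α2 was not called (log2 fold change 0.77, adjusted p = 0.0687 by edgeR), and neither was Δ133p53α8 (log2 fold change -0.92, adjusted p = 0.0347), which missed the fold threshold. These comparisons share their control libraries. MGMT, a DNA repair protein that removes alkyl groups from guanine, had 1, 0, 0 and 0 reads in Δ133p53α2 and 5, 19, 11 and 6 reads in Δ133p53α8. The ratio was 39.8 (95% counting interval 6.76 to 1610), and control had 3.14 CPM against 0.455 CPM in Δ133p53α8. Δ133p53α1, Δ133p53β5 and Δ133p53β10 were near 0, at 0.0137, 0.0298 and 0.0104 CPM of MGMT. STAT6 and MGMT were the only genes called among the 18 that the study's text on sequencing names, beside 0.137% of all tested genes. Of those 18, 5 had no reads in either clone and could not be called between them. SOX9 and LDHAL6FP were near 0 in both, at 0.0109 and 0.0103 CPM in Δ133p53α2 and 0 CPM in Δ133p53α8. The list of 18 was chosen in the study on these libraries. None of the 4 tested genes of the study's 6 cell surface proteins was called.

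**Figure D3:**
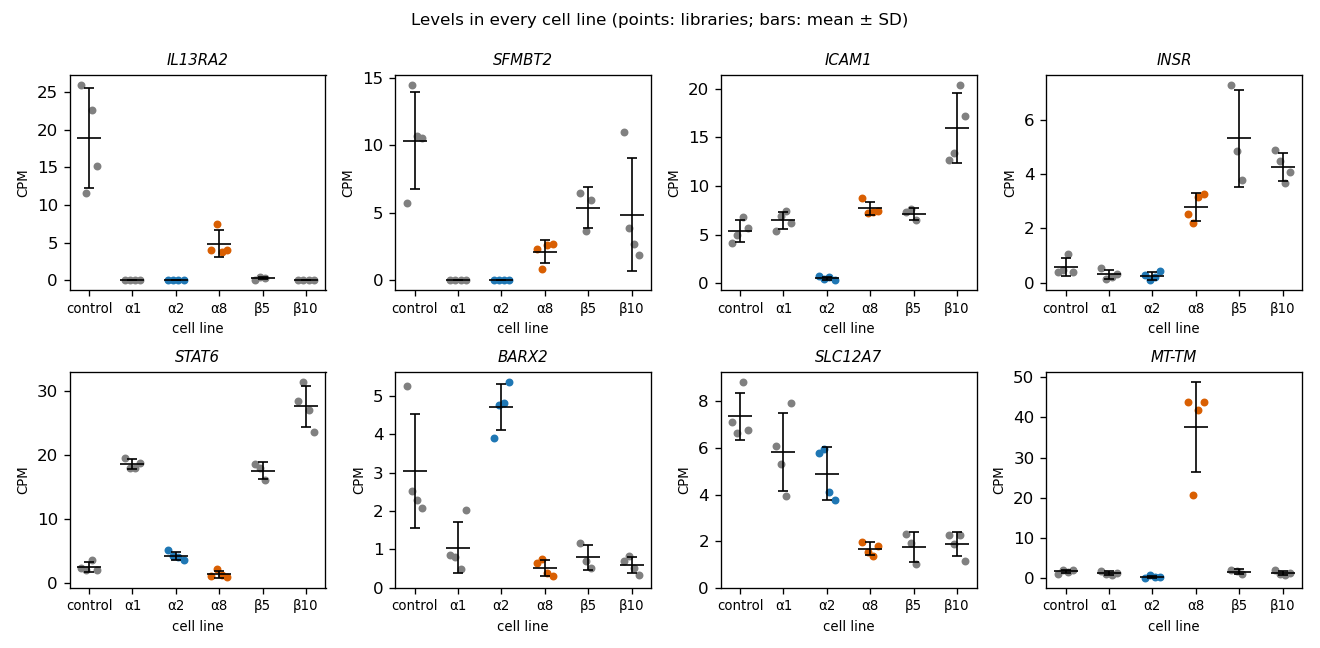
CPM of 8 called genes in each library of the 6 cell lines, with the mean and SD as bars (4 libraries a line, 3 for β5). ICAM1 is low in Δ133p53α2 alone and MT-TM is high in Δ133p53α8 alone among these lines, whereas STAT6 is low in control and both clones.

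ARHGAP6 was at 0.0522 CPM in Δ133p53α2 and 2 CPM in Δ133p53α8, and control had 0.0396 CPM. It was at 0.668 CPM in Δ133p53α1, 1.43 CPM in Δ133p53β5 and 1.54 CPM in Δ133p53β10. ZDHHC15, a palmitoyltransferase, was at 0.743 ± 0.264 and 3.14 ± 0.325 CPM (SD, n = 4 each). SLC12A7, a potassium and chloride cotransporter, was at 5.79, 5.94, 4.09 and 3.75 CPM in Δ133p53α2 and at 1.98, 1.54, 1.36 and 1.81 CPM in Δ133p53α8. The groups did not overlap, and the log2 fold change was -1.54 (SE 0.281, adjusted p = 0.0192 by edgeR). EIF4E3, a relative of the cap-binding translation factor, was at 0.999 ± 0.216 and 0.152 ± 0.0203 CPM (SD, n = 4 each). TMEM40 was at 8.13 ± 4.94 and 2.17 ± 0.233 CPM, and the noncoding RNA LINP1, which acts in DNA end joining, was at 1.23 ± 0.464 and 0.239 ± 0.0863 CPM.

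TM4SF19, a tetraspan membrane protein, had 20, 11, 30 and 38 reads in Δ133p53α2 and 0, 1, 0 and 0 reads in Δ133p53α8. The ratio of Δ133p53α2 to Δ133p53α8 was 102 (95% counting interval 17.9 to 4068). TM4SF19-AS1, on the opposite strand, was lower in Δ133p53α8 as well (log2 fold change -2.22, SE 0.392, adjusted p = 0.0183 by edgeR). The 2 genes overlap in part, and as for ICAM1 reads in the stretch they share cannot be told apart. Within 250 kb of the called nuclear and mitochondrial genes lay 137 tested neighbours, of which 4 were called, beside 0.137% of all tested genes. These 4 were the members of the ICAM1 and TM4SF19 pairs, each counted as the neighbour of the other member of its pair.

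MT-TM had 1, 15, 9 and 9 reads in Δ133p53α2 and 1017, 446, 984 and 1042 reads in Δ133p53α8. All other lines were low, with means of 1.19 to 1.64 CPM, against 37.6 ± 11.2 CPM in Δ133p53α8 (SD, n = 4; log2 fold change 6.64, SE 0.509, adjusted p = 1.39e-07 by edgeR). The genes on both sides in the mitochondrial genome were not called, with log2 fold changes of 0.76 for MT-TQ and 0.35 for MT-ND2. MT-TM borders MT-ND2 without a gap on the same strand, and from which transcripts its reads came was not tested.

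Over 30 lists of genes for known processes, 4 of 815 tested genes were called, namely ICAM1, INSR, LAMC3 and SFRP1, beside 0.137% of all tested genes. Of 35 cell cycle genes, 26 p53 target genes, 22 genes of epithelial and mesenchymal state and 25 hypoxia genes tested, none was called, with median log2 fold changes of 0.11, -0.13, -0.11 and -0.04. The median over all genes was 0.00105. Of the 22 genes of the integrated stress response, which adapts amino acid metabolism, 20 had a negative log2 fold change (median -0.71) and none was called (smallest adjusted p = 0.862 by edgeR). Their summed level was 1675 to 8660 CPM in Δ133p53α2 and 2159 to 4241 CPM in Δ133p53α8, so the clones overlapped. The median was -0.36 without the 2 libraries in which long genes were lower. TRIB3, a pseudokinase of this response, had means of 273 CPM in Δ133p53α2 and 49.3 CPM in Δ133p53α8 and was not called. Of the 75 cytosolic ribosomal protein genes, 3 had a positive log2 fold change, none was called, and the median moved from -0.34 to -0.12 without those libraries.

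Shifts shared by neighbouring genes were small. The median log2 fold change of a chromosome ranged from -0.12 (chromosome 16) to 0.11 (chromosome 4), and the difference passed the test for no chromosome (exact two-sided permutation test over libraries, smallest adjusted p = 0.851). No p of this test can be below 0.0286 with 70 splits, so a chromosome shifted on its own could not pass after adjustment. Nothing is concluded from this test. In 287 windows of 10 Mb, the clones did not overlap in 7 (2.44%), a share near the 2.24% of single genes that did not overlap. The lowest median, -0.48, was that of the first 10 Mb of chromosome 5, where 32 of 35 tested genes were lower in Δ133p53α8, SLC12A7 among them. The mean of these genes, as log2 CPM relative to all libraries, was -0.20 to -0.06 in Δ133p53α2 and -0.69 to -0.52 in Δ133p53α8. Control was at 0.59, Δ133p53α1 at 0, Δ133p53β5 at 0.2 and Δ133p53β10 at -0.01. TERT, the telomerase reverse transcriptase, lies there and was at 2.41 ± 1 and 1.31 ± 0.1 CPM (SD, n = 4 each; not called). The rest of chromosome 5 had a median of 0.06.

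Of the 7 windows, 3 lay in the first 90 Mb of chromosome 2. That stretch, chosen after its values were seen, had 391 of 468 genes lower in Δ133p53α8 (83.5%, against 49.8% of all tested genes) and a median of -0.22. The rest of the chromosome had a median of 0.05. A window on the X chromosome from 100 to 110 Mb had 57 of 69 genes higher in Δ133p53α8 and a median of 0.31. For each window the exact permutation p was 0.0286, the smallest that 70 splits can give, and the smallest adjusted p over windows was 0.922. No window on its own could pass after adjustment. The medians were -0.46, -0.26 and 0.26 for these 3 stretches without the libraries in which long genes were lower.

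**Figure D4:**
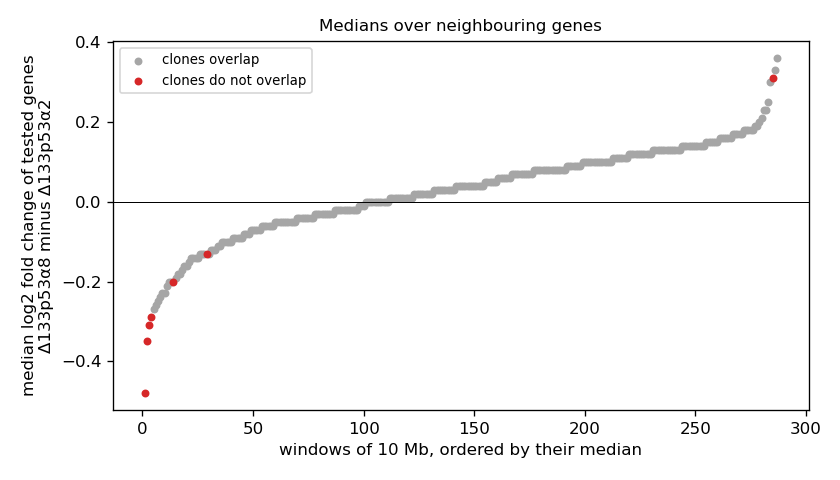
Median log2 fold change (Δ133p53α8 minus Δ133p53α2) of the tested genes in 287 windows of 10 Mb, ordered by value, with the 7 windows whose libraries do not overlap between the clones in red. Medians run from -0.48 to 0.36.

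Over the 500 most variable genes, the difference between the clones took a share of 0.173 of the sum of squares among the 8 libraries (exact two-sided permutation p = 0.371 over 70 splits). Over these genes, a difference between the clones was not detectable above the spread between libraries. With 1 library left out it was 0.141 to 0.324, the highest without replicate 2 of Δ133p53α8 (exact permutation p = 0.0571). Without the 2 libraries in which long genes were lower, the share was 0.461 (exact permutation p = 0.1, the smallest that 20 splits allow). For comparison, 101 genes (0.552%) were called between Δ133p53α2 and Δ133p53α1 and 95 (0.519%) between Δ133p53α8 and Δ133p53α1, and whether these counts differ from 25 was not tested. In Δ133p53α1, long genes were lower in replicates 2, 3 and 4, so the comparisons with this line also differ in the balance of library sets.

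In the fit of all libraries, some further genes were called with the difference between library sets as a term and not without it. KCNK6, a potassium channel, was at 37.6, 19.9, 19.5 and 24.6 CPM in Δ133p53α2 and at 6.51, 16.2, 5.73 and 5.26 CPM in Δ133p53α8. Its log2 fold change was -1.88 when the libraries in which long genes were lower were left out. PNMA8A was at 6.9, 11.1, 10.8 and 9.95 CPM in Δ133p53α2 and at 31.8, 20.5, 29.1 and 29 CPM in Δ133p53α8 (adjusted p = 0.000653 with the term and 0.0517 without it, by edgeR). FAIM, an inhibitor of apoptosis, was at 0.584 ± 0.312 and 2.42 ± 0.337 CPM (SD, n = 4 each). These genes were chosen after their values were seen.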

How the data were processed

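RNA of NCI-H1299 lines was sequenced as strand-specific poly(A) libraries. Per the labels and the paper's methods, the authors aligned reads to GRCh38 (hg38) with HISAT2, counted them with featureCounts and deposited unnormalized read counts per gene and library. A table column whose name and label disagree (1 column) was not used, so 23 libraries in 6 groups were fitted (17 residual degrees of freedom). The row without a name had 0 reads.

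Counts were tested in R 4.3.3 with edgeR 4.0.16 (filterByExpr, TMM, quasi-likelihood test) and checked on simulated data. Alternatives were DESeq2 1.42.0 (the tool the study states), limma 3.58.1 with voom, other filters, scalings and samples. No library repeats another of its clone (lowest chi-square per degree of freedom 15.8). Reads were not marked by molecular identifiers, so counting intervals and the floor of 3 counts cover counting error only. Positions are from GENCODE for GRCh38.

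The members and lists were chosen with earlier results of these data known. Genes named were the 10 protein-coding genes with the largest rise and fall among genes called with at least 1 CPM, 3 of other types each way, the 5 with the smallest p each way, called list members (up to 4) and the study's genes. MSX2, ZNF558, TERT, TRIB3 and those called only with the library set term were added after their values were seen. Some results are not reported here.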

Additional observations from a re-analysis of the deposited data

Results flagged for a closer look

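In 15 of 76 groups of 4 libraries, 1 library stood apart from the other 3 by Dixon's criterion. Chance flags about 1 in 20 groups, but in 4 of these groups the value is a single read against 3 libraries at 0, where that rate does not apply. Nor does it apply to groups at 0 in all 4 libraries, which are among the 76 and could not be flagged. Examples are PTN and TBX3 in Δ133p53α2 and MSX2 in Δ133p53α8. In replicate 1 of Δ133p53α2, MGMT was at 0.0557 CPM (others 0), MET was at 25.7 CPM (others 64.9 to 72.4), NR0B1 was at 10.1 CPM (others 5.37 to 5.94), TPM2 was at 468 CPM (others 200 to 237), ZNF22 was at 9.13 CPM (others 13.6 to 13.9). In replicate 3 of Δ133p53α2, IL13RA2 was at 0.0413 CPM (others 0), SFMBT2 was at 0.0413 CPM (others 0), ANXA3 was at 44.2 CPM (others 28.2 to 29.7). In replicate 4 of Δ133p53α2, CRACR2A was at 2.89 CPM (others 5.62 to 6.07), ERC2 was at 3.55 CPM (others 4.51 to 4.63). In replicate 1 of Δ133p53α8, ICAM1 was at 8.75 CPM (others 7.28 to 7.48). In replicate 2 of Δ133p53α8, TM4SF19 was at 0.0466 CPM (others 0), PTN was at 2.42 CPM (others 0.948 to 1.15), IL13RA2 was at 7.51 CPM (others 3.78 to 4.05), MT-TM was at 20.8 CPM (others 41.8 to 43.8). Replicate 1 of Δ133p53α2 and replicate 2 of Δ133p53α8 are the libraries in which long genes were lower. The part of this in these values was not tested.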

How the results depend on the processing

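The 25 called genes kept their direction in all 434 pairs of a gene and an alternative. IL13RA2, SFMBT2, ICAM1, ICAM4-AS1, INSR, BARX2, TM4SF19 and MT-TM, 8 genes in all, passed in every one that tested them. Against 25 genes called (14 higher, 11 lower), DESeq2 called 48 (27 higher, 21 lower, 8 on the process lists), the pairwise fit of 8 libraries 9 (6 higher, 3 lower, 2 on the lists) and the library set term 47 (28 higher, 19 lower, 7 on the lists). A filter at a mean of 1 CPM left 6 lower genes. Leaving out 1 library gave 12 to 18 called, 9 to 11 higher and 3 to 7 lower, and 2 to 4 on the lists, with the fewest without replicate 3 of Δ133p53α8. With the set term, chosen after seeing the data, it gave 32 to 51 called, with 41 without replicate 2 of Δ133p53α2 and 39 without replicate 1 of Δ133p53α8. The gap between the highest and lowest chromosome median, 0.23, was 0.3 over genes with at least 10 CPM and 0.17 to 0.39 with 1 library left out. The cause of these changes was not tested.

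With the replicate number as a block, 15 genes were called (5 lower, 2 on the lists), and all 15 were among the 25. Replicate numbers did not pair the libraries: the correlations of deviations between libraries of the same number were -0.337, -0.64, 0.552 and 0.356. Genes that were never called changed sign in 18 cases, as log2 fold changes MET 0.01, TPM2 0.03 (limma with voom), MET 0.02, TPM2 0.04 (library set as a term), TPM2 0.13, ERC2 0.03 (without the libraries in which long genes were lower). With 1 library left out, such genes ranged as EGFR -0.07 to 0.45, TPM2 -0.25 to 0.36, MET -0.3 to 0.1, ANXA3 -0.19 to 0.08, NR0B1 -0.01 to 0.45, ZNF22 -0.19 to 0.04, ERC2 -0.25 to 0.02. Low reads in 1 clone limit the fold changes of the largest differences.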
